A study of Mus musculus with 51 samples.

Results

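Cytochrome P450 genes were followed in the lungs of sensitized mice. The members are all probe sets whose gene symbol is Cyp, a number, a letter and a number with nothing after it, and the rule used no measured difference. It found 89 genes of 22206 probe sets, each measured by 1 probe set. Of these, 34 had a mean above 7 on the deposited log2 scale in at least 1 of 8 groups and are described before the other 55. The members nearest that level were Cyp7a1 at 7.070 just above it and Cyp1b1 at 6.996 just below it.

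All mice were male, 6 to 8 weeks old, and had 1% methylene diphenyl diisocyanate (MDI), a chemical of polyurethane production that can cause asthma, put on the skin before the airway exposures. On days 15, 16, 19 and 20 they received MDI-glutathione reaction products (called MDI here) or a control solution through the airways, and lavaged, perfused lungs were taken 48 h after the last of these. The groups were BALB/c mice (3 control, 3 MDI), C57BL/6 mice (6 control, 13 MDI), C57BL/6 mice given crofelemer, a chloride channel inhibitor, at 4 mg/kg into the nose 4 h before each exposure (5 control, 3 MDI), and B-cell deficient mice (9 control, 7 MDI). The last are B6.129S2-Ighmtm1Cgn/J, a line on a C57BL/6 background in which a disrupted immunoglobulin mu gene leaves no mature B cells. No group lacked the skin exposure, so the control groups are sensitized mice and not untreated ones. The labels do not tie arrays to separate animals beyond numbering them, so p-values measure the spread between these arrays.

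Cytochrome P450 enzymes are haem proteins that put oxygen into fats, steroids, vitamins and foreign chemicals, with electrons passed on by partner proteins. In the mouse lung, club cells of the airway lining hold many of the foreign-chemical enzymes, and these can make a chemical harmless or reactive. Other members open and close signals: they make and break down steroid hormones, bile acids, vitamin D, retinoic acid and lipid mediators. Transcription of CYP1 genes is switched on by the aryl hydrocarbon (Ah) receptor, which binds DNA at a short GCGTG core.

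Upstream sequences are shown for the members on which results turn, from RefSeq (mouse build GRCm38.p6), which held an upstream sequence for 68 of the 89 members. Cyp2a4 (steroid 15-alpha-hydroxylase) and Cyp2a5 (coumarin 7-hydroxylase) are close copies in 1 cluster on chromosome 7, and their upstream sequences are shown because both genes fell after MDI. The windows are chr7:26306943-26307191 for Cyp2a4 and chr7:26835089-26835337 for Cyp2a5, both on the plus strand and ending just before the start of transcription. Capitals mark the 4 of 249 aligned bases that differ.
Cyp2a4: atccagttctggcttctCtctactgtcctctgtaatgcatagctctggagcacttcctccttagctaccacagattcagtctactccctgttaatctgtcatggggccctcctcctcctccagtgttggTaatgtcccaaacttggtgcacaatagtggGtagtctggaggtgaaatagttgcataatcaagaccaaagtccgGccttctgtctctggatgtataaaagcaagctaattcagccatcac
Cyp2a5: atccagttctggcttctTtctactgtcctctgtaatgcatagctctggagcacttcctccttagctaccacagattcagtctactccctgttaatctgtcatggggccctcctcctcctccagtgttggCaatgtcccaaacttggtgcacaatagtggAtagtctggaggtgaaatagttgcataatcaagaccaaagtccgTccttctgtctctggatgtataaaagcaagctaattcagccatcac
These sequences were 98.4% identical, against a median of 29.6% over 2278 pairs of members. Over 90% identity was found in 4 pairs, which also included Cyp2b13 with Cyp2b9, Cyp3a16 with Cyp3a44 and Cyp3a25 with Cyp3a59. No transcript or probe sequences were compared, so whether the probe sets of such pairs share signal was not tested, and their values are uncertain to that extent.

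The upstream sequences of the Ah receptor targets Cyp1a1 (chr9:57697363-57697612, plus strand) and Cyp1b1 (chr17:79715062-79715311, minus strand) are shown because Cyp1a1 had some of the widest differences between groups. Capitals mark the GCGTG core, which lies 54 bases before the start of Cyp1a1 and, on the other strand as CACGC, 76 bases before that of Cyp1b1.
Cyp1a1: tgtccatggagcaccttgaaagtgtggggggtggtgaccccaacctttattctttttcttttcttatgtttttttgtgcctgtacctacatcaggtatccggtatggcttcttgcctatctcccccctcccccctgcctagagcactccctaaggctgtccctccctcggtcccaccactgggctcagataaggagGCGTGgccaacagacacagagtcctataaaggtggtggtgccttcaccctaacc
Cyp1b1: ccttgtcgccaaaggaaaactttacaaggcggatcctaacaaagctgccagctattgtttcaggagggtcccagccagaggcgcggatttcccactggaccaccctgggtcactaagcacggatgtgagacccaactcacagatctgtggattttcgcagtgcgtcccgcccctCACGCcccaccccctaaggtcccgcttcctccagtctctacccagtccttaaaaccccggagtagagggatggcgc
The core was found on either strand within 250 bases upstream in 13 of the 68 members (19.1%) and in 28.2% of 32851 promoters of all genes. A match of 5 letters is a description and not a binding site.

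The mean over all probe sets of an array was 7.37 to 7.40 for BALB/c, 7.48 to 7.51 for C57BL/6 without crofelemer, 7.43 to 7.48 for crofelemer-treated and 8.02 to 8.07 for B-cell deficient mice. The cause of these differences was not tested, so a level set across strains or genotypes can carry them, and fold changes hold for the deposited scale. Lung identity was clear, with the alveolar type 2 gene Sftpc between 19.12 and 19.63 on every array. B-cell deficient controls all came from a block of consecutive records that held only 3 of the 7 B-cell deficient MDI arrays, and 4 of those controls (1, 2, 5 and 6) had the narrowest spread of values, with interquartile ranges of 4.05 to 4.37. For 1 C57BL/6 MDI array (number 14) the source label names the control solution while its other labels say MDI. Without it 16 members were called in C57BL/6 mice, as with it.

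After MDI, 13 of the 89 members were lower and 3 higher in C57BL/6 mice, and 30 were lower and 4 higher in B-cell deficient mice (limma, adjusted p under 0.05, used throughout). The members called made up 18.0% in C57BL/6, where 14.5% of all probe sets were called (9.23% lower, 5.30% higher). They made up 38.2% in B-cell deficient mice, where 36.9% were called (20.7% lower, 16.2% higher). The share of members called was thus near that of all probe sets in B-cell deficient mice. Median changes of the members were -0.03 and -0.21, beside 0.01 and -0.06 over all probe sets. No member was called in BALB/c mice (3 at an unadjusted p under 0.05), where 0.302% of probe sets were called, or under crofelemer (6 at an unadjusted p under 0.05), where 0.0540% were called. Both of those comparisons had 3 MDI arrays.

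**Figure D1:**
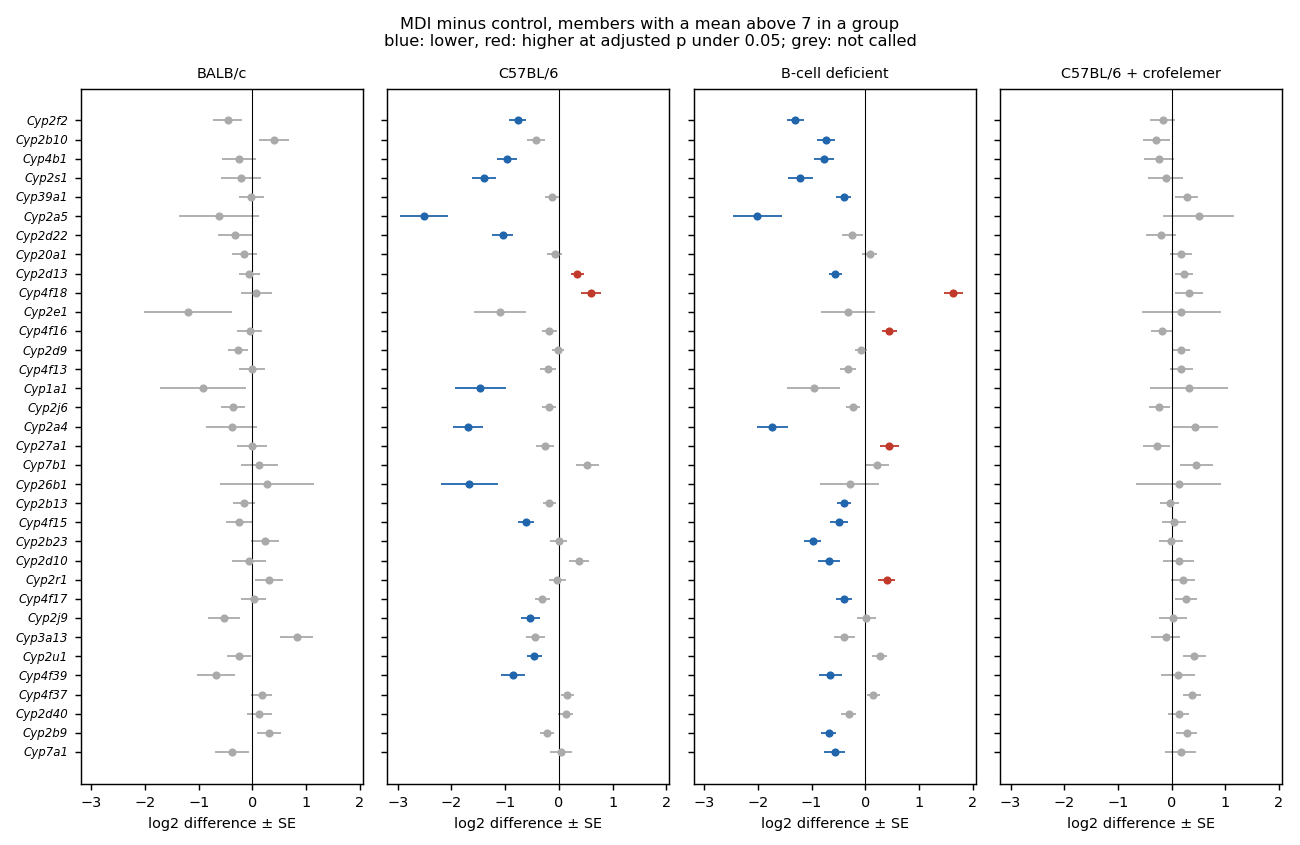
MDI minus control on the log2 scale with its SE for the 34 members with a mean above 7 in a group, in BALB/c, C57BL/6, B-cell deficient and crofelemer-treated C57BL/6 mice. Blue and red points were lower and higher at an adjusted p under 0.05 and grey points were not called: Cyp2a5 lies at -2.51 in C57BL/6 mice and Cyp4f18 at 1.64 in B-cell deficient mice.

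Of the 7 airway enzymes of foreign chemicals, 5 were lower in C57BL/6 mice, 6 were lower in B-cell deficient mice and none was higher in either. Of all probe sets 9.23% and 20.7% were called lower. All 7 had a mean above 7 in a group, and 12 and 16 of the 34 such members were lower. The 7 were listed with earlier results of these data known, so their counts are a description. The median change of the 7 was -1.10 in C57BL/6 and -1.21 in B-cell deficient mice. They held the largest fall, that of Cyp2a5. Outside them, Cyp26b1 (-1.67), Cyp1a1 (-1.46) and Cyp2d22 (-1.05) fell more in C57BL/6 mice than Cyp4b1 and Cyp2f2 did. Fewer cells of a type and less RNA per cell cannot be told apart in whole lung. The club cell list had 1 of 6 genes lower in C57BL/6 mice and 2 lower and 1 higher in B-cell deficient mice. Its defining gene Scgb1a1 was at 19.81 ± 0.04 (SD, n = 6) in C57BL/6 controls and 19.78 ± 0.09 (SD, n = 13) after MDI, near the top of the scale, while the secretoglobin Scgb3a2 fell by 0.81 in C57BL/6 and fell by 1.07 in B-cell deficient mice. Mean levels of the club list ran from 12.27 to 12.86 in C57BL/6 controls and from 12.00 to 12.73 after MDI. Those of B-cell deficient mice ran from 12.43 to 13.07 and from 12.35 to 13.02. Another club marker, Upk3a, lay at 4.74 or below on every array. The club list also holds Aox3, which is counted again among the other oxidation and hydrolysis enzymes below. Endothelial markers were lower in 4 of 6 in C57BL/6 mice, with a median change of -0.48 and mean levels of 14.13 to 14.62 in controls and 13.47 to 14.32 after MDI, and alveolar type 1 markers in 2 of 4 (14.05 to 14.29 and 13.49 to 14.11). Among B-cell deficient mice 2 endothelial markers were lower and 1 higher, and 1 of 4 alveolar type 1 markers was lower. All 4 goblet cell markers rose in both lines, with Clca1 at a median of 9.45 in C57BL/6 controls and 17.27 after MDI. Their part in the result was not tested.

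Cyp2f2, the club cell enzyme that activates naphthalene, ranged from 18.62 to 18.94 with a median of 18.78 in C57BL/6 controls. After MDI it ranged from 16.80 to 18.57 with a median of 18.22, so the groups did not overlap. The change was -0.77 ± 0.16 (SE, adjusted p = 0.000599). Cyp2f2 in B-cell deficient mice ran from 18.58 to 19.29 (median 18.96) in controls and from 17.41 to 17.93 (median 17.59) after MDI. These groups also stood apart, with a change of -1.30 ± 0.16 (adjusted p = 2.65e-08), and the difference of the 2 falls was not called (-0.53 ± 0.23, adjusted p = 0.0926).

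BALB/c controls read 18.79, 19.05 and 19.00 for Cyp2f2, and the MDI arrays 18.54, 18.32 and 18.60. All 3 MDI arrays lay under all 3 controls, yet the change of -0.46 ± 0.27 was not called (adjusted p = 0.999). Lower groups without overlap were found for 6 members in BALB/c mice, where 6.83% of all probe sets had them, for 2 in C57BL/6 mice, where 0.617% had them, and for 3 in B-cell deficient mice, where 2.36% had them. Higher groups without overlap were found for 5 members in BALB/c mice (7.48% of all probe sets) and 1 in B-cell deficient mice (4.67%). The difference of the MDI effects between the strains was called for none of the 89 members (8 at an unadjusted p under 0.05), beside 0.0270% of probe sets.

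Cyp2s1, an extrahepatic enzyme of lining cells, ran from 13.85 to 15.11 (median 14.43) in C57BL/6 controls and from 11.74 to 14.18 (median 12.90) after MDI. All 13 MDI arrays lay below the control mean, with some overlap of the groups. It fell by 1.40 ± 0.22 (adjusted p = 1.63e-05). The ranges in B-cell deficient mice were 14.27 to 15.25 and 13.13 to 13.82, which did not overlap. The change there was -1.21 ± 0.23 (adjusted p = 5.02e-05).

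Cyp4b1, which oxidizes fatty acids and aromatic amines in lung, ran from 15.21 to 15.96 (median 15.58) in C57BL/6 controls and from 13.48 to 15.27 (median 14.70) after MDI. These groups overlapped by a narrow margin. It fell by 0.97 ± 0.19 (adjusted p = 0.000246). Its controls in B-cell deficient mice lay between 15.67 and 16.19 and the MDI arrays between 14.58 and 15.58, without overlap. The change was -0.77 ± 0.19 (adjusted p = 0.00144).

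Cyp2a5 showed the widest fall of any member in both lines. C57BL/6 controls ran from 10.17 to 12.51 (median 11.88) and MDI arrays from 7.28 to 11.08 (median 9.23). All 13 MDI arrays lay below the control mean, and the change was -2.51 ± 0.45 (5.70-fold, adjusted p = 8.09e-05). Ranges in B-cell deficient mice were 9.91 to 13.29 and 9.19 to 11.04, and the change was -2.01 ± 0.46 (adjusted p = 0.000539). Its near copy Cyp2a4 ran from 7.82 to 9.12 in C57BL/6 controls and from 5.64 to 7.67 after MDI, without overlap. Cyp2a4 fell by 1.69 ± 0.28 (adjusted p = 3.07e-05), and changed by -1.73 ± 0.29 in B-cell deficient mice (adjusted p = 7.52e-06). Whether the copies share signal was not tested, so these are not counted as independent results.

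Cyp2b10, a target of the xenobiotic receptor CAR, was lower after MDI in B-cell deficient mice. Its controls ran from 16.20 to 16.81 and its MDI arrays from 15.07 to 16.35, and it fell by 0.73 ± 0.17 (adjusted p = 0.000917). In C57BL/6 mice the change of -0.43 ± 0.17 was not called (adjusted p = 0.0848). In BALB/c mice all 3 MDI arrays (14.84, 15.15 and 15.27) lay above the 3 controls (14.72, 14.81 and 14.54), with a change of 0.40 ± 0.28 that was not called. The difference between BALB/c and C57BL/6 mice was 0.82 ± 0.33 (adjusted p = 0.499).

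Cyp2e1, the ethanol-inducible enzyme, was the airway member not called in any MDI comparison. C57BL/6 controls ran from 8.13 to 11.54 with a median of 9.28, and MDI arrays from 6.32 to 9.73 with a median of 8.09. The change was -1.10 ± 0.49 (adjusted p = 0.134). The highest values came from BALB/c control 1 at 13.05, with the other controls of that strain at 8.01 and 9.33, and from C57BL/6 control 4 at 11.54. Those 2 arrays also held the highest values of Ucp1, a gene of brown fat, in their groups (12.48 and 10.36, beside group medians of 5.09 and 5.19). Mean levels of the 4 measured fat genes ran from 6.30 to 11.29 in BALB/c controls and from 6.04 to 9.93 in C57BL/6 controls, against 4.90 to 8.52 in C57BL/6 MDI arrays. The part of fat in the Cyp2e1 values was not tested.

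**Figure D2:**
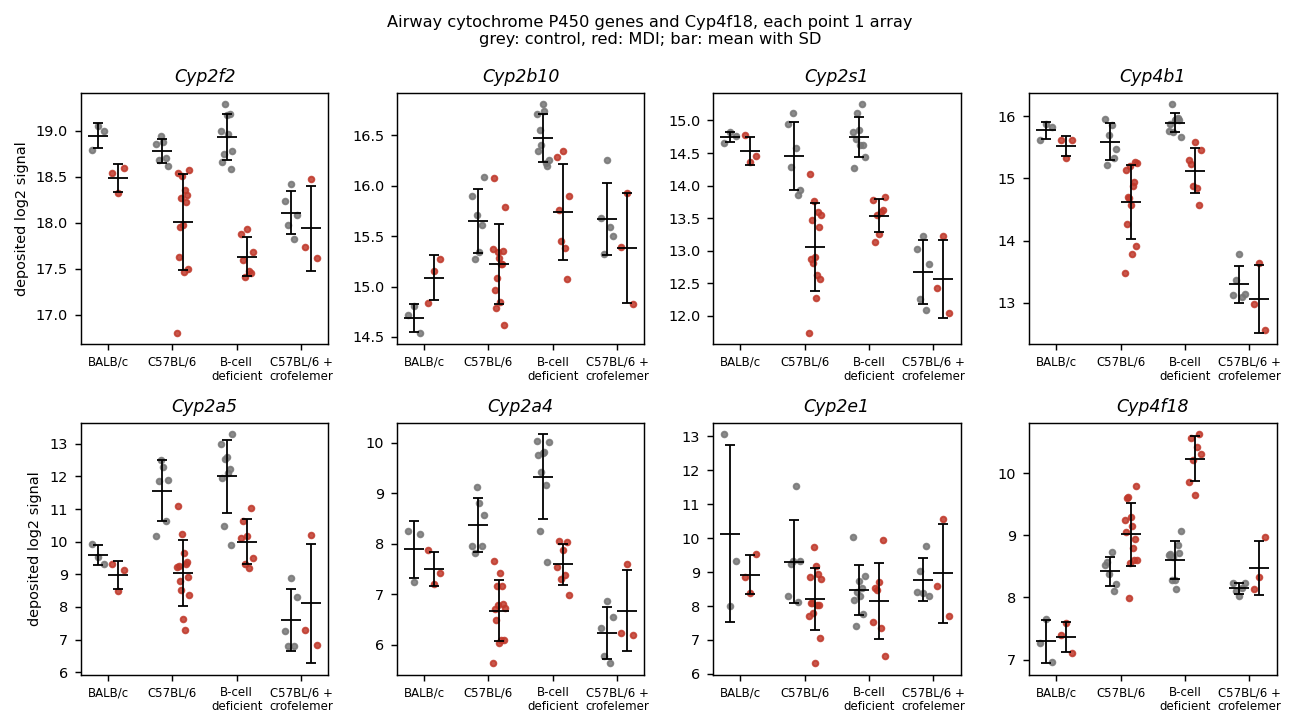
Deposited log2 signal of 7 airway enzymes and Cyp4f18 in each of the 49 arrays, control in grey and MDI in red, with the mean and SD of each group. C57BL/6 MDI arrays of Cyp2f2 lie between 16.80 and 18.57, all below the controls, and B-cell deficient MDI arrays of Cyp4f18 lie between 9.66 and 10.63, all above theirs.

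On chromosome 7, 13 members lie close together, from Cyp2s1 through Cyp2b10, Cyp2b13, Cyp2b9, Cyp2a4, Cyp2b23, Cyp2b19, Cyp2g1, Cyp2a5, Cyp2a22 and Cyp2a12 to Cyp2f2 and Cyp2t4, with 5 other protein-coding genes among them. Of these 13, 4 were lower in C57BL/6 mice and 9 in B-cell deficient mice, and none was higher. Of all probe sets 14.5% and 36.9% were called, with 9.23% and 20.7% called lower. The 4 were Cyp2s1, Cyp2a4, Cyp2a5 and Cyp2f2, airway enzymes already counted above, so they are the same calls and not a further result. The 9 included these 4 and Cyp2b10, which were also counted above in B-cell deficient mice. Without the narrow-spread controls 7 of the 9 calls in B-cell deficient mice held. The median change was -0.19 and -0.68. Near copies among the 13 are not independent counts. Cyp4b1 fell as well and lies outside this group of genes.

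Among the 3 Ah receptor targets, Cyp1a1, which oxidizes polycyclic hydrocarbons, was lower after MDI in C57BL/6 mice, with a change of -1.46 ± 0.48 (adjusted p = 0.0335). The control arrays read 7.52, 7.86, 7.58, 12.30, 11.29 and 7.35, and the MDI arrays ran from 6.60 to 8.51 with a median of 7.67. Controls 4 and 5 thus stood far above all other arrays of the strain, while the other 4 controls lay inside the MDI range. Without control 4 the change was -0.80 (adjusted p = 0.278), and the call was also lost without control 5 or MDI array 8, in the compared groups alone (adjusted p = 0.0782) and within the first submission block (-1.23, adjusted p = 0.191). In B-cell deficient mice controls ran from 8.33 to 12.22 and MDI arrays from 8.37 to 9.06, a change of -0.96 ± 0.49 that was not called (adjusted p = 0.121).

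Cyp1a2, a low-level member that oxidizes aromatic amines and was singled out after its values were seen, was lower in B-cell deficient mice (-0.28 ± 0.09, adjusted p = 0.0114), a call lost without the narrow-spread controls (-0.29, adjusted p = 0.0549). Its change in C57BL/6 mice was 0.07 ± 0.09, and the difference of the effects was -0.36 ± 0.13 (adjusted p = 0.0375, and 0.130 without those controls). Cyp1b1, which oxidizes hydrocarbons and estrogens, was not called for MDI in any comparison. It changed by -0.13 ± 0.14 in C57BL/6 and 0.22 ± 0.14 in B-cell deficient mice (adjusted p = 0.580 and 0.212). Of 5 measured genes of the Ah receptor pathway, 2 were lower in C57BL/6 mice: the receptor's partner Arnt (-0.35 ± 0.12) and the quinone reductase Nqo1 (-0.68 ± 0.20). The repressor of the receptor, Ahrr, was lower in B-cell deficient mice (-0.56 ± 0.11). The receptor gene Ahr was called higher there (0.50 ± 0.20), but without the 4 narrow-spread controls its change was 0.10 ± 0.21 (adjusted p = 0.781).

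Cyp26b1, which breaks down retinoic acid, read 8.28, 8.09, 6.45, 10.59, 9.26 and 9.69 in C57BL/6 controls. MDI arrays ran from 5.45 to 8.68 with a median of 6.88, so the groups overlapped. It fell by 1.67 ± 0.53 (adjusted p = 0.0272), and the call was lost without control 4 (-1.30, adjusted p = 0.129), control 5 or control 6. Control 4 thus held the highest value of Cyp1a1, Cyp2e1 and Cyp26b1 among the C57BL/6 controls. The change in B-cell deficient mice was -0.29 ± 0.55.

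Among the 14 fatty acid omega-hydroxylases, 2 were lower and 1 higher in C57BL/6 mice, and 4 lower and 2 higher in B-cell deficient mice. These are 21.4% and 42.9%, beside 14.5% and 36.9% of all probe sets called. Cyp4f18, which acts on leukotriene B4 in mouse myeloid cells, was the member that rose most. C57BL/6 controls ran from 8.11 to 8.74 (median 8.45) and MDI arrays from 7.99 to 9.79 (median 9.06), a rise of 0.60 ± 0.18 (adjusted p = 0.0170) that was lost without control 5 (0.53, adjusted p = 0.0555), within the first submission block (0.50, adjusted p = 0.219) and in the compared groups alone (adjusted p = 0.0561). Cyp4f18 in B-cell deficient mice ran from 8.13 to 9.08 (median 8.69) in controls and from 9.66 to 10.63 (median 10.31) after MDI, with no overlap. The rise was 1.64 ± 0.18 (3.12-fold, adjusted p = 9.11e-10). It was larger than in C57BL/6 mice by 1.04 ± 0.25 (adjusted p = 0.00349), and by 0.92 without the 4 narrow-spread controls (adjusted p = 0.0503). Of 4 measured alveolar macrophage markers, 1 was higher in C57BL/6 and 3 in B-cell deficient mice (1 of the 3 without the narrow-spread controls), and their part in the result was not tested. Their mean level ran from 11.54 to 12.62 in B-cell deficient controls and from 12.39 to 13.08 after MDI, and in C57BL/6 mice from 11.44 to 12.86 and from 12.23 to 12.89.

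Cyp4f15 and Cyp4f39, members of the same subfamily, moved down. Cyp4f15 ran from 7.35 to 7.89 in C57BL/6 controls and from 6.60 to 7.81 after MDI, a change of -0.62 ± 0.15 (adjusted p = 0.00334) that was not called within the first submission block (-0.54, adjusted p = 0.0850). Cyp4f39, whose human counterpart makes very long acids for the skin barrier, fell by 0.86 ± 0.22 (adjusted p = 0.00443). Both were also lower in B-cell deficient mice (-0.49 ± 0.16 and -0.65 ± 0.22). The Cyp4f39 call was lost with the submission block as a term (adjusted p = 0.103), and that of Cyp4f15 without the 4 narrow-spread controls (adjusted p = 0.124).

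Cyp2d22, which resembles human CYP2D6, was lower in C57BL/6 mice. Its controls ran from 11.00 to 12.29 (median 11.59) and its MDI arrays from 9.80 to 11.22 (median 10.56), all 13 below the control mean. The change was -1.05 ± 0.19 (adjusted p = 0.000118). In B-cell deficient mice the change was -0.24 ± 0.20 (adjusted p = 0.344), and the difference of the effects was 0.81 ± 0.28 (adjusted p = 0.0318). Cyp2u1, a fatty acid hydroxylase, fell by 0.46 ± 0.14 in C57BL/6 mice (adjusted p = 0.0211), a call lost without control 3 or 5. Its change in B-cell deficient mice was 0.27 ± 0.14 (not called), and the difference was 0.73 ± 0.20 (adjusted p = 0.00887). Both differences lost their calls without the narrow-spread controls (adjusted p = 0.323 and 0.0972).

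Cyp2d13 moved in opposite directions in the lines. It rose by 0.34 ± 0.12 in C57BL/6 mice (adjusted p = 0.0454), a call that was lost with 12 of 19 arrays left out in turn, and fell by 0.56 ± 0.12 in B-cell deficient mice (adjusted p = 0.000319). Controls of the latter ran from 10.66 to 11.28 and MDI arrays from 10.07 to 10.66. The difference of the effects was -0.89 ± 0.17 (adjusted p = 0.000417) and was called without the narrow-spread controls (-0.75, adjusted p = 0.0168). MDI effects differed with B-cell deficiency in 17 members, 5 upward and 12 downward (19.1%, beside 20.3% of all probe sets, 9.27% upward and 11.0% downward). With each array centred on its median, the split was 4 upward and 20 downward. Centring moved the median of this difference over all probe sets from -0.01 to -0.11. Without the 4 narrow-spread controls 1 member was called, and that was Cyp2d13.

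Cyp2b23, Cyp2b9 and Cyp2d10, enzymes of the families that act on foreign chemicals, were lower in B-cell deficient mice. Cyp2b23 ran from 7.85 to 9.05 in controls and from 6.94 to 7.85 after MDI, a change of -0.98 ± 0.16 (adjusted p = 5.09e-06). In C57BL/6 mice its change was 0.00 ± 0.16, and the difference of the effects was -0.98 ± 0.22 (adjusted p = 0.00206, and 0.0620 without the narrow-spread controls). Cyp2b9 and Cyp2d10 changed by -0.68 ± 0.14 and -0.68 ± 0.20. The effect on Cyp2b9 did not pass the test of a difference from C57BL/6 mice (-0.46 ± 0.19, adjusted p = 0.0776), where it changed by -0.22 ± 0.13. The Cyp2d10 call was lost without the narrow-spread controls (-0.44, adjusted p = 0.184) and within the second submission block (-0.56, adjusted p = 0.0693).

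Of the 55 members at 7 or below in every group, 14 were lower and none higher in B-cell deficient mice. That is 25.5%, less than the 36.9% of all probe sets called and near the 20.7% called lower. They included the steroid hormone enzymes Cyp11b1 (-0.43 ± 0.10) and Cyp17a1 (-0.42 ± 0.12), the fatty acid hydroxylase Cyp4a14 (-0.68 ± 0.20) and the epoxygenase Cyp2c66 (-0.51 ± 0.16). None of these 4 calls held without the 4 narrow-spread controls. Liver markers, 4 of 6, and squamous cell markers, 4 of 4, were also lower after MDI in these mice, and 1 and 2 of these calls held without the same controls. Mean levels of the liver list ran from 5.95 to 6.95 in controls and from 5.75 to 6.03 after MDI, with those of the squamous list from 5.73 to 10.38 and from 4.30 to 7.16. The squamous keratin Krt4 reached 14.21 in 1 control. Their part in the result was not tested. In C57BL/6 mice 2 of the 55 were called: Cyp3a11, a steroid and drug hydroxylase, fell by 0.42 ± 0.13 and the epoxygenase Cyp2c39 rose by 0.30 ± 0.10. The Cyp3a11 call was lost without control 4, and the Cyp2c39 call with 6 of 19 arrays left out in turn.

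**Figure D3:**
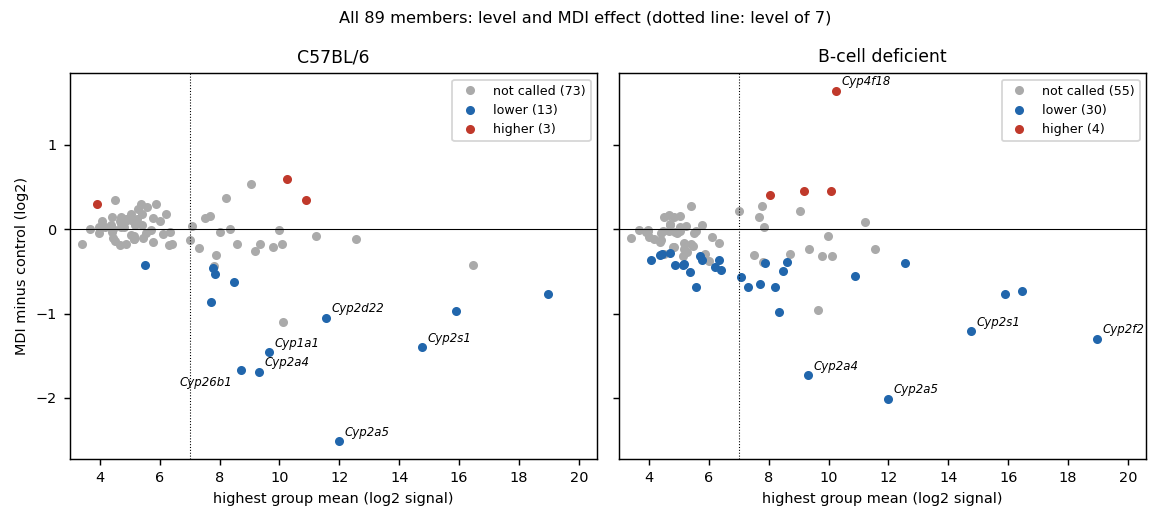
Highest group mean (log2 signal, horizontal) against MDI minus control (log2, vertical) for all 89 members in C57BL/6 and B-cell deficient mice, with the dotted line at a level of 7. Points are blue for the 13 and 30 members that were lower, red for the 3 and 4 that were higher, and grey otherwise, and members called with a change over 1 are named.

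Airway enzymes were also lower in B-cell deficient mice within the second submission block alone (9 controls, 3 MDI arrays), where Cyp2f2 changed by -1.40, Cyp2s1 by -1.07, Cyp4b1 by -0.93 and Cyp2a5 by -2.09, each called. In that block 14 members were called, beside 34 over all arrays, and 16 with the block as a term. Without the 4 narrow-spread controls 15 were called: 13 of the 34 calls held, 21 were lost and 2 were new. Among those that held were Cyp2f2 (-1.29), Cyp2s1 (-1.29), Cyp4b1 (-0.78), Cyp2a5 (-1.69) and Cyp4f18 (1.52). In the first block alone 7 members were called in C57BL/6 mice, all lower, and these included Cyp2a5 (-2.60), Cyp2a4 (-1.75), Cyp2s1 (-1.72), Cyp2d22 (-1.15), Cyp4b1 (-1.11), Cyp2f2 (-0.88) and Cyp4f39 (-0.94). The count in C57BL/6 mice was 9 without control 5. Shares of all probe sets called in these fits are not given here, so the counts are no result about the members.

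Of 9 bile acid, cholesterol and vitamin D members, 0 were called by limma in C57BL/6 mice (1 at an unadjusted p under 0.05). In B-cell deficient mice 2 rose and 3 fell (55.6%, beside 36.9% of all probe sets called). Cyp27a1, the mitochondrial sterol 27-hydroxylase, rose by 0.45 ± 0.17 there (adjusted p = 0.0354), a call lost with the submission block as a term (0.22, adjusted p = 0.513). Cyp39a1, an oxysterol hydroxylase singled out after its values were seen, fell by 0.40 ± 0.14 (adjusted p = 0.0248). In BALB/c mice it read 10.67, 10.96 and 10.90 in controls and 10.93, 10.86 and 10.68 after MDI.

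Partner genes of the P450 enzymes moved in part with them. Of 10 measured electron donor and haem genes, 5 were lower and 1 higher in C57BL/6 mice, among them Fech, the last enzyme of haem synthesis (-0.49 ± 0.11), and the haem-binding Pgrmc1 (-0.50 ± 0.12). In B-cell deficient mice 2 were lower, Pgrmc1 (-0.64 ± 0.12) and the electron donor Cyb5b (-0.44 ± 0.13), and Fdx1, which feeds mitochondrial P450 enzymes, was higher (0.40 ± 0.13). Median changes of the list were -0.38 and -0.11. The Cyb5b call was lost without the narrow-spread controls (-0.41, adjusted p = 0.0510). Of 18 other oxidation and hydrolysis enzymes, 8 were lower in C57BL/6 and 9 in B-cell deficient mice and none was higher, and 5 of the 9 calls held without the narrow-spread controls. Pon1, which hydrolyses lactones and organophosphates, changed by -2.08 ± 0.36 and -1.97 ± 0.37, Aldh3a1, an aldehyde dehydrogenase, by -1.16 ± 0.27 in each, and Ephx1, an epoxide hydrolase, by -0.86 ± 0.15 and -0.82 ± 0.16.

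Of 12 nuclear receptor and related factor genes, 1 was lower in C57BL/6 mice, the oxysterol receptor Nr1h3 (-0.87 ± 0.15). In B-cell deficient mice 4 were higher and 2 lower, with the lipid receptor Pparg at 1.00 ± 0.21 and Cebpa at 0.81 ± 0.16 among the former and the pregnane X receptor Nr1i2 (-0.45 ± 0.17) among the latter. Without the 4 narrow-spread controls 2 of these 6 calls held, those of Pparg (0.75 ± 0.24) and Cebpa (0.60 ± 0.18), and Nr1i2 changed by -0.28 ± 0.19 (adjusted p = 0.315).

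**Figure D4:**
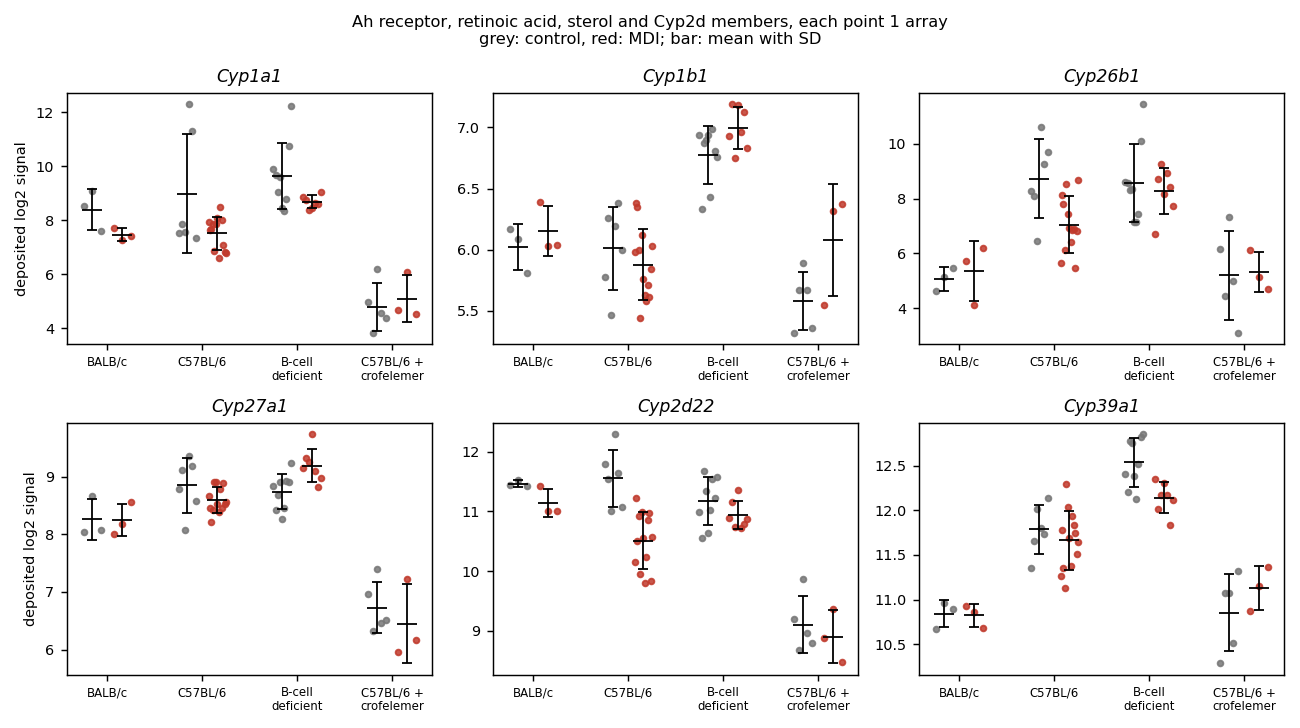
Deposited log2 signal of Cyp1a1, Cyp1b1, Cyp26b1, Cyp27a1, Cyp2d22 and Cyp39a1 in each of the 49 arrays, control in grey and MDI in red, with the mean and SD of each group. C57BL/6 controls 4 and 5 stand at 12.30 and 11.29 for Cyp1a1, and all 8 crofelemer arrays lie at 6.20 or below.

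Crofelemer was compared with no crofelemer in C57BL/6 mice. In control mice 21 members were lower and 7 higher (31.5%, beside 39.0% of all probe sets, 21.4% lower and 17.6% higher), and in MDI mice 12 were lower and 8 higher (22.5%, beside 32.6%, 17.5% lower and 15.0% higher). With each array centred on its median the split was 16 lower and 19 higher in controls and 7 lower and 16 higher in MDI mice. Centring moved the median difference over all probe sets from 0.03 to 0.19 in controls and from 0.04 to 0.14 in MDI mice. In control mice 5 of 5 ciliated, 6 of 6 endothelial and 5 of 6 club cell markers were lower as well, and 1 club marker was higher. In MDI mice 5, 5 and 3 were lower. Some other lists were mixed. Of 6 alveolar type 2 markers 3 were lower and 2 higher in control mice, and 3 lower and 3 higher in MDI mice. Of 5 smooth muscle and fibroblast markers 2 were lower and 2 higher in control mice, and 2 lower and 1 higher in MDI mice. Mean levels of the ciliated list ran from 9.68 to 10.46 in C57BL/6 controls and from 7.36 to 8.25 with crofelemer, those of the endothelial list from 14.13 to 14.62 and from 13.00 to 13.62, and those of the club list from 12.27 to 12.86 and from 11.33 to 12.17. In MDI mice these lists ran from 9.14 to 10.39 and 7.94 to 8.53, from 13.47 to 14.32 and 12.66 to 13.18, and from 12.00 to 12.73 and 11.50 to 12.32. Their part in the result was not tested. Crofelemer arrays lay in the same submission blocks as the others of the strain, and within the first block alone Cyp1a1 differed by -3.92 in controls and -2.48 with MDI and Cyp27a1 by -2.04 and -2.14, each called. Crofelemer controls had a narrower spread of values, with interquartile ranges of 4.63 to 5.03 beside 5.07 to 5.30 in C57BL/6 controls. With MDI the ranges were 4.66 to 4.85 and 4.67 to 5.18. The cause of this narrower spread was not tested. Groups without overlap were found for 14 members lower (12.7% of all probe sets) and 1 higher (7.60%) in controls, and for 3 lower with MDI (8.87%). The comparisons in controls and with MDI use different arrays, but each shares its arrays without crofelemer with the MDI comparison in C57BL/6 mice.

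Cyp1a1 had the largest estimated difference of the members. Crofelemer controls read 4.98, 3.83, 6.20, 4.55 and 4.37 and crofelemer MDI arrays 4.67, 6.10 and 4.54, all below every C57BL/6 array without crofelemer, the lowest of which was 6.60. The difference was -4.20 ± 0.59 in controls (adjusted p = 8.54e-08) and -2.42 ± 0.63 with MDI (adjusted p = 0.00201). Over leaving out each array in turn it ran from -4.55 to -3.53 in controls. That difference includes C57BL/6 controls 4 and 5, at 12.30 and 11.29, while the others read 7.35 to 7.86. Leaving out 1 array at a time keeps at least 1 of these high values, and the difference without both was not computed. Of the Ah receptor pathway genes, Nqo1 (-1.03 ± 0.25) and Tiparp (-0.57 ± 0.20) were lower in controls.

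Cyp27a1 read 6.96, 6.32, 7.40, 6.46 and 6.51 in crofelemer controls and 5.96, 7.23 and 6.16 in crofelemer MDI arrays. The values without crofelemer lay between 8.07 and 9.35, apart from these. It was lower by nearly the same amount in both: -2.12 ± 0.21 (adjusted p = 5.34e-12) and -2.14 ± 0.22 (adjusted p = 3.40e-11).

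Cyp2d22 read 9.20, 8.67, 9.87, 8.97 and 8.79 in crofelemer controls, below all 6 controls without it. It differed by -2.46 ± 0.24 in controls and -1.60 ± 0.25 with MDI (adjusted p = 3.20e-12 and 9.23e-07). Cyp4b1 read 13.12, 13.37, 13.79, 13.09 and 13.14 in crofelemer controls and differed by -2.28 ± 0.23 in controls and -1.56 ± 0.24 with MDI (adjusted p = 1.15e-11 and 9.58e-07). Cyp26b1 differed by -3.53 ± 0.66 in controls (adjusted p = 1.77e-05) and -1.73 ± 0.69 with MDI (adjusted p = 0.0492), the latter call being lost with 12 of 16 arrays left out in turn.

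Of the 7 airway enzymes 5 were lower with crofelemer in control mice (21.4% of all probe sets) and 1, Cyp4b1, with MDI (17.5%). The test of the difference between these called 1 of the 7, Cyp2a4. Cyp2a5 read 7.25, 6.79, 8.88, 6.80 and 8.29 in crofelemer controls, all below the lowest control without it, with a difference of -3.96 ± 0.55 (adjusted p = 5.44e-08). With MDI its difference was -0.94 ± 0.58 (adjusted p = 0.220, 95% interval -2.11 to 0.22). Cyp2s1 differed by -1.77 ± 0.27 in controls (adjusted p = 6.08e-07) and -0.49 ± 0.29 with MDI (adjusted p = 0.203). Cyp2f2 differed by -0.67 ± 0.20 (adjusted p = 0.00532) and -0.07 ± 0.21 (adjusted p = 0.841). Cyp2b10, by contrast, read 15.68, 15.32, 16.26, 15.59 and 15.50 in crofelemer controls and differed by 0.02 ± 0.21 (95% interval -0.40 to 0.44).

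Among the epoxygenases, Cyp2c65, a low-level member, was higher with crofelemer, by 0.73 ± 0.18 in controls and 0.93 ± 0.19 with MDI (adjusted p = 0.000896 and 0.000106). Of the other oxidation and hydrolysis enzymes 16 of 18 were lower and 1 higher in controls, with Pon1 at -3.52 ± 0.45 and the flavin monooxygenase Fmo1 at -2.13 ± 0.22. Of the electron donors, Cyb5a was lower (-1.47 ± 0.12), while the haem-degrading Hmox1 was higher by 1.07 ± 0.31.

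**Figure D5:**
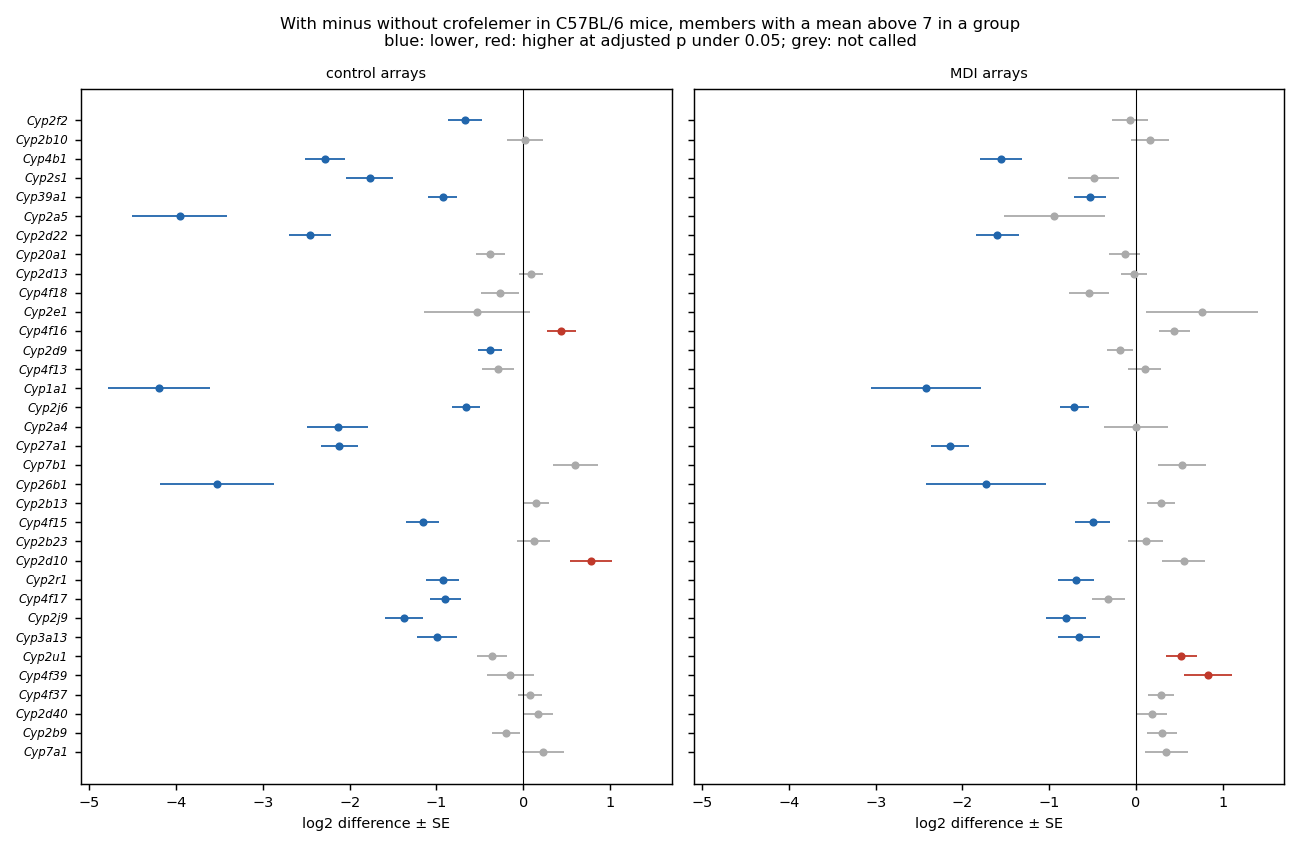
With minus without crofelemer on the log2 scale with its SE for the 34 members with a mean above 7 in a group, in control mice (left) and MDI mice (right). Blue and red points were lower and higher at an adjusted p under 0.05 and grey points were not called: Cyp1a1 lies at -4.20 and -2.42 and Cyp27a1 at -2.12 and -2.14.

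Under crofelemer the airway enzymes did not pass the test for MDI, with changes of -0.17 ± 0.24 for Cyp2f2, -0.11 ± 0.33 for Cyp2s1, -0.24 ± 0.28 for Cyp4b1 and 0.50 ± 0.66 for Cyp2a5. The test of the difference from C57BL/6 mice without crofelemer called 2 of 89 members (17 at an unadjusted p under 0.05), beside 0.423% of all probe sets. These were Cyp2a4 (2.13 ± 0.51, adjusted p = 0.0350) and Cyp3a11 (1.04 ± 0.23, adjusted p = 0.0214). Cyp2a4 read 6.34, 5.78, 6.87, 5.64 and 6.55 in crofelemer controls and 6.24, 7.60 and 6.19 in crofelemer MDI arrays, so the control level there was already as low as that of C57BL/6 mice after MDI (5.64 to 7.67). Its call was lost without any of 7 arrays, with adjusted p up to 0.245. The Cyp3a11 call was lost without crofelemer MDI array 3 (0.72, adjusted p = 0.142). For Cyp2a5 and Cyp2s1 the differences were 3.01 ± 0.80 (adjusted p = 0.0694) and 1.29 ± 0.40 (adjusted p = 0.146) and were not called.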

How the data were processed

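Whole-lung RNA (250 ng) was hybridized to 1-colour arrays, per the labels' protocols. The authors deposited log2 signal values, written with Transcriptome Analysis Console per the submitters' processing notes. Its version was not given in the sources used here, nor was the normalization. The base of the logarithm was inferred from the range of 1.86 to 20.91. Of 51 arrays, 49 entered 8 groups, and 2 whose labels contradict each other on crofelemer were left out. The number of arrays limits the precision.

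Limma 3.58.1 in R 4.3.3 fitted 1 model of group means to the deposited values (41 residual degrees of freedom), with an intensity trend, 2-sided tests and Benjamini-Hochberg adjustment over all 22206 probe sets. A change was called at an adjusted p under 0.05. Errors of differences are moderated SEs. Probe sets with 1 symbol numbered 19572, and all 89 members matched RefSeq. The model was tested on simulated data. Alternatives were median centring, quantile normalization, no dim probe sets, array weights, the compared groups alone, blocks of consecutive records (not named as batches in the labels), the replicate block and leaving out each array.

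The members and lists were chosen with earlier results of these data known. Members named were those above 7 called for MDI (at most 12 a comparison by adjusted p), 8 airway members, and up to 4 called per crofelemer comparison, difference and low-level set. Others named, such as Cyp39a1, were chosen after their values were seen. Protein sequences were not used here. Same-numbered arrays correlated between -0.26 and 0.18. Different-numbered arrays were not compared, so this cannot tell whether numbers pair samples.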

Additional observations from a re-analysis of the deposited data

Results flagged for a closer look

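Over 108 sets of 1 gene in 1 group of 4 to 10 arrays, 2 arrays stood far from the rest of their group, no more than the 1 in 20 or so that chance gives. Cyp2e1 read 11.54 in C57BL/6 control 4, and Cyp2b23 read 5.29 in C57BL/6 control 2.

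The effect of MDI differed with crofelemer for Cyp2a4 by 2.13 and for Cyp3a11 by 1.04. It differed with B-cell deficiency upward for Cyp4f18 (1.04), Cyp2d22 (0.81), Cyp2u1 (0.73) and Cyp27a1 (0.71). It differed downward for Cyp2d10 (-1.05), Cyp2b23 (-0.98), Cyp4a14 (-0.94), Cyp2d13 (-0.89), Cyp2c66 (-0.81) and Cyp17a1 (-0.54).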

How the results depend on the processing

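No named result changed direction under any alternative run. Of 567 values of 71 results for named genes, 463 kept their call and 104 lost it, and with each array left out in turn 50 of the 71 results kept every call. Quantile normalization gave 1 called member for the difference by crofelemer and 8 for that by B-cell deficiency. With dim probe sets left out 27 members were tested, and 16 were called for MDI in B-cell deficient mice, 13 and 18 for crofelemer with MDI and in controls, and 1 and 7 for the differences by crofelemer and by B-cell deficiency. Array weights gave 1 for the difference by crofelemer and 1 for that by strain, and the compared groups alone gave 0 for the difference by crofelemer. The submission block as a term gave 16 for MDI in B-cell deficient mice and 6 for the difference by B-cell deficiency. Block 1 alone gave 7 for MDI in C57BL/6 mice and 0 for the difference by crofelemer, and block 2 alone 14 for MDI in B-cell deficient mice. Block 1 alone for B-cell deficient mice and block 2 alone for all other comparisons could not be fitted. Leaving out the 4 narrow-spread B-cell deficient controls was an alternative chosen after seeing the data. It gave 15 for MDI (13 also called over all arrays) and 1 for the difference by B-cell deficiency. Beyond fewer genes or arrays in some of these, the cause was not tested. Shares of all probe sets called under these alternatives are not given here.

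Left out in turn, single arrays moved the counts from 9 to 16 for MDI in C57BL/6, 29 to 36 in B-cell deficient mice, 10 to 24 for crofelemer with MDI (10 without crofelemer MDI 1), 23 to 29 in controls, 1 to 3 for the difference by crofelemer (1 without C57BL/6 control 3, 4 or 6, crofelemer control 2 or 4, or crofelemer MDI 1 or 2), and 11 to 18 for that by B-cell deficiency (11 without C57BL/6 control 2 or 4 or B-cell deficient control 5). The counts for MDI in BALB/c, for MDI under crofelemer and for the difference by strain were 0 each time. Median centring turned the split for MDI in B-cell deficient mice to 2 higher and 35 lower.

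The replicate block gave 7 for MDI in C57BL/6 mice (12 arrays), 6 for crofelemer with MDI (6 arrays) and 0 for the difference by crofelemer (12 arrays). Of same-numbered pairs, 0 of 3 in BALB/c, 4 of 6 in C57BL/6, 1 of 7 in B-cell deficient mice and 1 of 3 under crofelemer correlated above 0.1. Without different-numbered pairs beside them, these counts do not settle whether numbers pair samples.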

Other observations

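The 2 arrays left out of all groups gave these values. The array titled number 4 read 4.68 for Cyp1a1, 6.55 for Cyp27a1, 9.61 for Cyp2d22, 13.78 for Cyp4b1, 8.10 for Cyp2a5, 18.31 for Cyp2f2 and 13.11 for Cyp2s1. The array titled number 13 read 9.28 for Cyp1a1, 8.66 for Cyp27a1, 10.43 for Cyp2d22, 14.05 for Cyp4b1, 9.78 for Cyp2a5, 17.79 for Cyp2f2 and 13.07 for Cyp2s1.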
